A study of Gallus gallus with 6 samples.

Results

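The ileum is the last segment of the small intestine, and its baseline transcriptome is described here from the 3 libraries labelled CT, out of 6 in the series. They were chosen by that label alone. The birds were Taiping chickens aged 2 months, labelled male, that ate a corn-soybean basal diet with nothing added to it. The other 3 libraries came from birds given a probiotic and fructo-oligosaccharide in their water and are not used, so no diet comparison is made. CT replicates carry numbers, but the labels do not tie each number to its own bird, so an SD over them (n = 3 throughout) may be partly technical. Those labels call the tissue ileum only and do not say which layers of its wall were sampled.

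In birds as in mammals the ileum finishes the uptake of peptides, amino acids, sugars and fat across a brush border of microvilli, and takes bile acids back into the blood. Its epithelium also secretes mucus and fluid, and it overlies a tissue rich in lymphocytes, plasma cells and macrophages. Rings of smooth muscle, nerve plexuses, connective tissue and vessels make up the rest of the wall. All of these cells contribute to one RNA pool, in which fewer cells of a type and less RNA per cell cannot be told apart.

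Values are FPKM (fragment counts divided by transcript length and by library size), as given in the authors' table, in which 17623 genes are listed. The estimated counts of the CT libraries summed to 16056240, 17289705 and 18106651 in replicates 1, 2 and 3, and this is the order of every set of values by library below. One library did not match its companions in sex-linked transcripts. ATP5F1AW, a subunit of ATP synthase on the W chromosome that hens carry and cocks lack, had 86.5, 0.09 and 82.8 FPKM. HNRNPKL, another W-linked gene, had 1251, 1 and 1421 counts. CT replicates 1 and 3 therefore carried W-linked transcripts against their label, and CT replicate 2 stood apart from both. Shares of the brush border, immunoglobulin and smooth muscle classes are also given without it.

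Of the listed genes, 12102 reached 1 FPKM in all 3 CT libraries, 4572 reached it in no CT library, and 473 and 476 did so in 1 and in 2 of the 3. A count of 0 in every CT library was found for 1413 genes. Expression was concentrated in few genes. The most abundant gene held 2.19 ± 0.190% of the summed FPKM, the first 10 held 10.9 ± 0.478%, and the first 100 held 31.1 ± 0.704% (SD). The mean FPKM was at least 1000 in 56 genes, at least 100 in 756 and at least 10 in 7425. In CT replicates 1, 2 and 3, 50% of the summed FPKM came from 454, 434 and 428 genes. Each library's own first 100 genes differed little, since 85 genes were in that list in all 3 libraries.

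The head of the ranking was set by mitochondrial transcripts, by antigen presentation and by products of the ileal epithelium. COX1 (ENSGALG00000032142), encoded in the mitochondrial DNA and the catalytic subunit of cytochrome c oxidase, had 11003, 10546 and 12563 FPKM. COX3 and COII, the other mitochondrially encoded core subunits of that enzyme, followed with means of 9271 ± 1891 and 7488 ± 1110.4 FPKM. All 3 were highest in CT replicate 3. Rank 4 was held by Ii (ENSGALG00000004594, CD74), the invariant chain that guards the peptide groove of class II MHC molecules, at 5638, 6101 and 6137 FPKM. B2M (ENSGALG00000002160), the light chain of class I MHC molecules, had 4273, 5136 and 3867 FPKM. Every library had more Ii than B2M, and the gap was narrowest in replicate 2.

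FABP6 (ENSGALG00000001445), the bile acid carrier of the ileal cytoplasm, ranked 6 at 4617, 3994 and 3632 FPKM. GUCA2A (ENSGALG00000027269; the reference names it GUCA2B), a guanylin-type peptide that prompts the epithelium to release salt and water, ranked 7 at 3729, 5037 and 2982 FPKM. Its libraries were 1.69-fold apart, with replicate 2 highest. EEF1A1, which brings aminoacyl-tRNA to the ribosome, averaged 3823 ± 295 FPKM, and the actins ACTG1 and ACTB averaged 3482 ± 177 and 2659.9 ± 86.5 FPKM. These 2 actin genes encode near-identical proteins, and how well the counting told their reads apart is not known. UBB, which encodes ubiquitin, averaged 3096 ± 243 FPKM.

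Rank 11 belonged to a Muc2 locus (MSTRG.13178), described in the table as mucin-2, the gel-forming mucin of goblet cells, at 3119, 3201 and 2777 FPKM. Its FPKM and counts imply a length of only 270 bases, and by counts the locus ranked 128. A second Muc2 locus (MSTRG.13175), with an implied length of 3248 bases, had 505, 488 and 577 FPKM and ranked 39 by counts. Both are assembled pieces, so the level of the whole mucin is not given by either. The 26th gene, MSTRG.11585, and the 38th, MSTRG.11584, are described only as an uncharacterized protein and averaged 1488 and 1203 FPKM. The first of them ranked 9 by counts.

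Ranks 18 to 29 mixed immune, absorptive and ribosomal genes. IGLL5 (MSTRG.4454), described as an immunoglobulin lambda chain, had 2437, 1161 and 2752 FPKM, with replicate 2 below 50% of either other library. ANPEP, aminopeptidase N of the brush border, averaged 1883 ± 275 FPKM. CRIP1, a small LIM-domain protein known from mammalian intestine, averaged 1846 ± 487 FPKM, and LGALS2, a galectin, 1798 ± 214 FPKM. MEP1A, the metalloprotease meprin A, had 902, 1769.6 and 1664 FPKM, and replicate 1 was the low one. Of the first 100 genes 34 encode cytosolic ribosomal proteins and 9 are mitochondrially encoded.

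**Figure D1:**
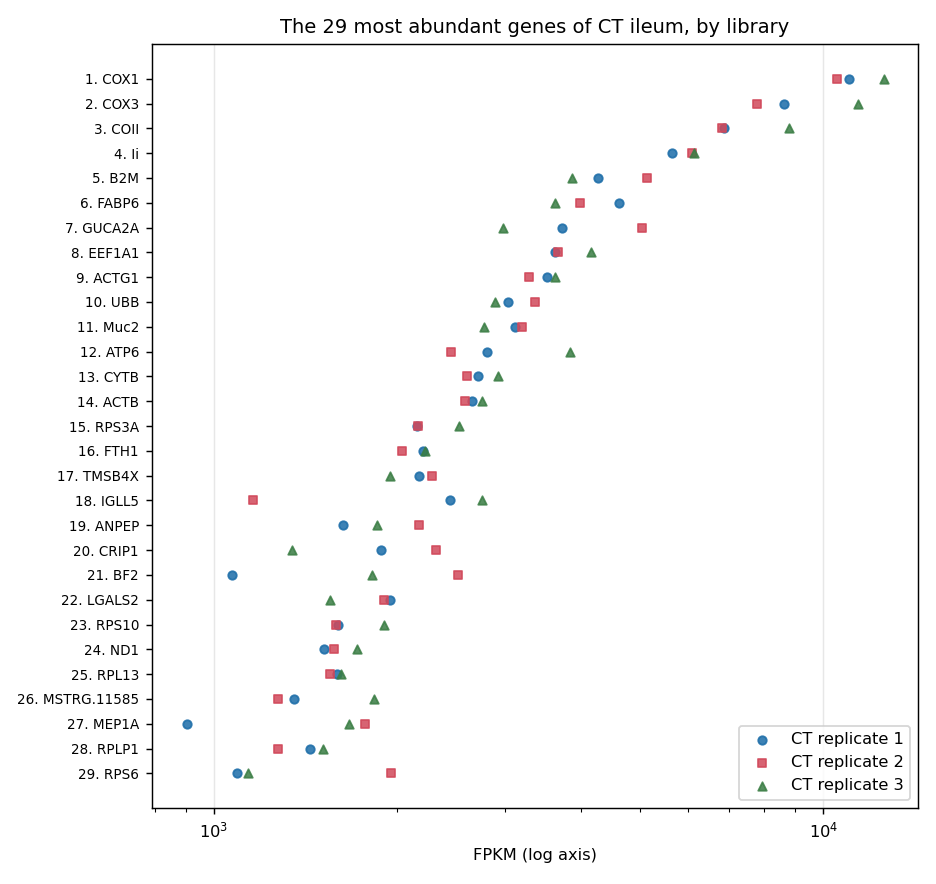
FPKM (log axis) of the 29 genes with the highest mean CT FPKM, ranked from the top, with one point for each CT library. COX1 stands highest at 10546 to 12563 FPKM; the points of IGLL5, BF2, RPS6 and MEP1A are spread widest among them.

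Expression was next divided into 31 classes of genes by symbol, each gene counted once. The classes held 2355 genes and 51.4 ± 0.728% of the summed FPKM, and 90 of the first 100 genes. The rest, 48.6%, lay in genes of no class. By the KEGG annotation in the authors' table, which covered 4621 genes, metabolism held 17.7 ± 0.822%, genetic information processing 17.4 ± 0.429%, organismal systems 14.5 ± 0.489% and cellular processes 14.4 ± 0.284%. A gene can fall in several KEGG groups, so these shares do not add up.

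The apparatus that makes protein was the largest class by FPKM. Cytosolic ribosomal proteins held 9.27, 9.31 and 9.78% of the summed FPKM, or 9.45 ± 0.281% on average (SD). Of their 76 genes, 74 reached 1 FPKM in all 3 libraries, and the median of their means was 599 FPKM. RPS3A, of the small subunit, was highest at 2279 ± 209 FPKM. Translation factors and their partners added 2.46 ± 0.124%, of which EEF1A1 alone made up 29.9%. EEF2, which moves the ribosome along, averaged 764 ± 70.1 FPKM.

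The 13 genes of the mitochondrial DNA held 7.10, 6.84 and 8.67% of the summed FPKM. Replicate 3 was highest in all 13, and over them its log2 FPKM exceeded the mean of both others by a median of 0.35. Among all 12642 genes with a mean of at least 1 FPKM, replicate 3 was highest in 37.3%. Levels within the class ran from 28.8 FPKM for ND6 to 11371 FPKM for COX1, and COX1, COX3 and COII together made up 71.8% of it. The nuclear genes of oxidative phosphorylation, 85 of them, held 1.56 ± 0.0824%. COX6A1, a nuclear subunit of cytochrome c oxidase, led them at 502 ± 40.1 FPKM. Mitochondrial ribosomal proteins held 0.41 ± 0.0113%, and glycolysis and central carbon enzymes 1.43 ± 0.0498%. GAPDH and ENO1, both glycolytic, averaged 1051 ± 97.3 and 904 ± 49.5 FPKM.

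Length scaling matters for these shares. By counts, which are not scaled to length, ribosomal proteins held 4.27 ± 0.168% and mitochondrially encoded genes 4.14 ± 0.500%, and the first 100 genes by FPKM share 66 members with the first 100 by counts. Of the other classes, 6 changed by over 1.5 times. Counts gave more to extracellular matrix (1.53% by counts) and brush border genes (2.59%), and less to nuclear oxidative phosphorylation (0.858%), iron, metal and redox genes (0.795%), the mitochondrial ribosome (0.253%) and mucus and goblet cell genes (0.711%). The first 100 genes by FPKM had a median implied length of 1092 bases, against 2211 bases for genes of at least 1 FPKM below rank 1000.

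Genes that face the gut lumen held smaller shares. Brush border enzymes and scaffold proteins held 1.39, 2.01 and 1.60%, or 1.67 ± 0.314%, and 1.49% without replicate 2. Peptidases led this class. After ANPEP and MEP1A came ENPEP, an aminopeptidase that removes acidic residues, at 676, 975 and 863 FPKM, and DPEP1, a dipeptidase, at 593, 1076 and 627 FPKM. Replicate 2 was highest for ANPEP, MEP1A, ENPEP and DPEP1. The sugar-splitting SI, sucrase-isomaltase, averaged 241 ± 37.4 FPKM, and the microvillus proteins MYO1A and VIL1 averaged 336 ± 20.4 and 325 ± 18.6 FPKM.

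Of 293 solute carrier genes, 215 reached 1 FPKM in all 3 libraries and 65 in none, and the class held 1.48 ± 0.18%. Its highest member was SLC25A6, which exchanges ADP and ATP across the inner mitochondrial membrane, at 1052 ± 42.4 FPKM. SLC6A19, the sodium-coupled carrier of neutral amino acids, had 646, 1134 and 586 FPKM. SLC15A1, which takes up di- and tripeptides, had 228, 574 and 268 FPKM, and in both replicate 2 lay above either other library. SLC5A1, the sodium-glucose carrier, varied less at 222 ± 27.6 FPKM, and SLC3A1, the heavy subunit of a cystine and basic amino acid carrier, averaged 176 ± 29.8 FPKM. Chosen after its values were seen, ATP1B1, the beta subunit of the sodium pump that builds the gradient these carriers use, had 401, 384 and 398 FPKM. The fructose carrier SLC2A5, chosen in the same way, had 26.1, 50.8 and 51.2 FPKM.

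Fat and sterol absorption genes held 0.763, 0.99 and 0.627% of the summed FPKM (0.793 ± 0.184%). The fatty acid carriers FABP1 and FABP2 averaged 1099 ± 247 and 699 ± 168 FPKM. APOA1, the main protein of high-density lipoprotein, had 689, 1197 and 531 FPKM, and MTTP, which loads lipid onto apolipoprotein B, averaged 153 ± 21.6 FPKM. Bile acid handling held 0.849 ± 0.0963%, of which FABP6 alone made up 92.5%. SLC10A2, the apical uptake carrier, averaged 60.2 ± 4.75 FPKM, and the basolateral exit carrier's subunits SLC51A and SLC51B averaged 140.0 ± 8.35 and 25.8 ± 2.99 FPKM. The bile acid receptor NR1H4 averaged 54.1 ± 8.34 FPKM, and its target gene FGF19, a hormone that restrains bile acid synthesis in the liver, 3.15 ± 1.02 FPKM. Within this one pathway, levels thus ran from 3.15 to 4081 FPKM.

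Enzymes that modify foreign compounds and retinoids held 1.13 ± 0.0969%. The carboxylesterase CES1L2 (439.7 ± 37.2 FPKM), the sulfotransferase SULT1C3 (312 ± 15.1 FPKM) and CYP3A5 (309.5 ± 33.6 FPKM) were among the 4 highest. ABCB1, an efflux pump chosen after its values were seen, had 362, 485 and 272 FPKM.

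Secreted and signalling products of the epithelium were uneven. Mucus and goblet cell genes held 1.11 ± 0.0872%, but only 0.443% when assembled loci, the Muc2 pieces among them, were left out. CLCA1, a secreted goblet cell protein, had 818, 1216 and 629 FPKM. AGR2, a disulfide isomerase needed to fold mucin, had 915, 662 and 899 FPKM, so replicate 2 was highest for the first and lowest for the second. The transcription factor SPDEF, which drives goblet cell maturation, averaged 63.8 ± 15.4 FPKM.

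Guanylin-type peptides act through the receptor GUCY2C, which averaged 244 ± 28.5 FPKM, and the kinase PRKG2, which averaged 14.4 ± 0.852 FPKM. The chloride channel CFTR, opened at the end of this pathway, averaged 21.3 ± 4.68 FPKM, and the exchangers SLC26A3 and SLC9A3 averaged 153 ± 47.8 and 11.1 ± 1.90 FPKM. Receptor, kinase and channel were therefore all detected beside a ligand in the first 10 genes. This list was added after values were seen.

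Hormones and secretory granule proteins held 0.157 ± 0.0131%, with 26 of 31 genes at 1 FPKM or more in all 3 libraries. CHGA, a granule protein of enteroendocrine cells, averaged 196 ± 27.8 FPKM. Neurotensin (NTS) led the hormones at 117 ± 21.7 FPKM, followed by GCG, the glucagon and GLP precursor, at 83.1 ± 7.27 FPKM. CCK, secretin (SCT) and motilin (MLN), hormones of the upper intestine in mammals, averaged 56.0 ± 20.0, 41.4 ± 20.0 and 38.0 ± 5.72 FPKM. PYY averaged 7.23 ± 1.25 FPKM and GIP 6.12 ± 3.50 FPKM, while ghrelin (GHRL) had 0, 0.4 and 0.06 FPKM.

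**Figure D2:**
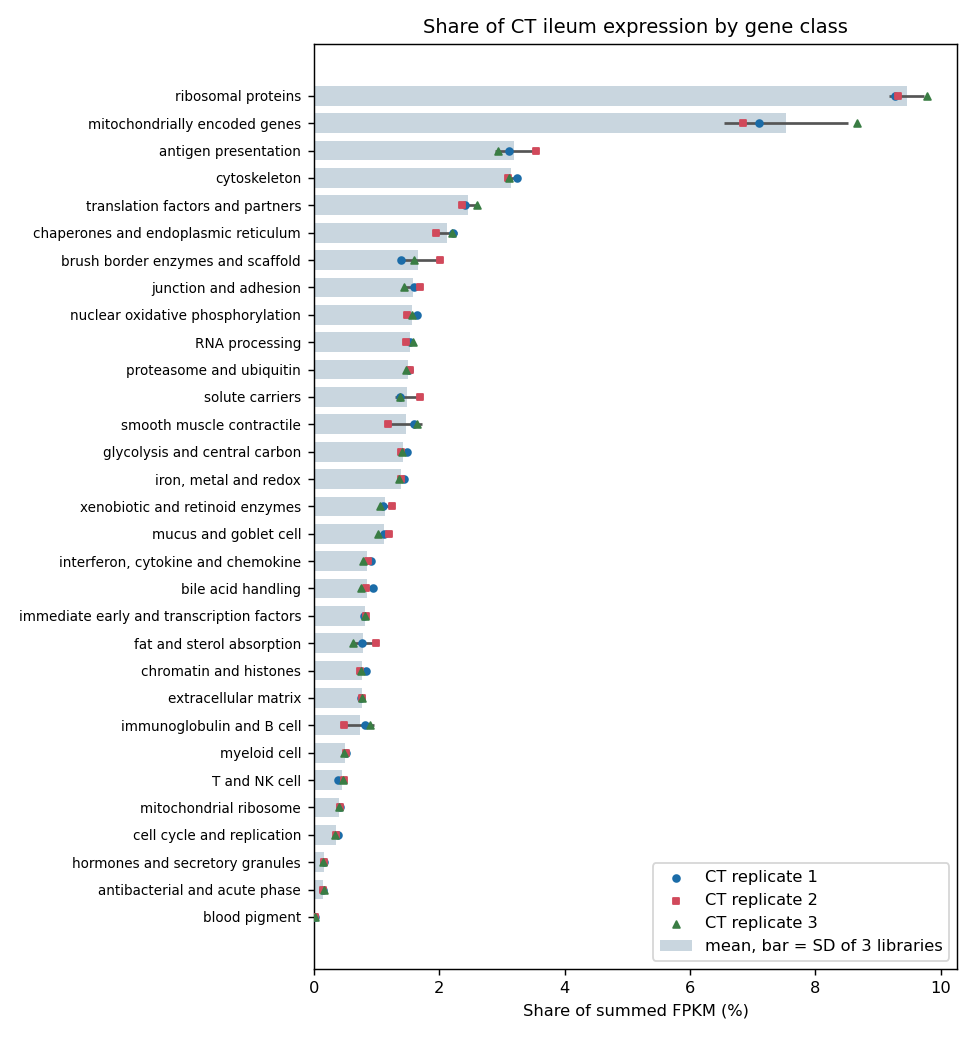
Share of the summed FPKM (%) held by each of the 31 gene classes, as the mean of the 3 CT libraries with its SD and one point per library. Ribosomal proteins lead at 9.45% and mitochondrially encoded genes follow at 7.53%; the points of replicate 2 lie highest for brush border, solute carrier and fat absorption genes and lowest for smooth muscle and immunoglobulin genes.

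Antigen presentation held 3.20 ± 0.312% from only 14 genes, a share within 1 SD of that of the cytoskeleton, with a median of 404 FPKM per gene. Besides Ii and B2M it rests on the class I heavy chains BF2 and BF1 and the class II beta chains BLB1 and BLB2. BF2 had 1071, 2511 and 1819 FPKM and BF1 1623, 1171 and 505 FPKM. BLB1 had 542, 1098 and 1084 FPKM and BLB2 1318, 716 and 291 FPKM. BF1 and BLB2 were highest in replicate 1, the library in which BF2 and BLB1 were lowest. The sum of BF1 and BF2 was 2694, 3682 and 2324 FPKM and that of BLB1 and BLB2 was 1860, 1815 and 1374 FPKM. These sums were 1.58- and 1.35-fold apart. BF1 and BLB2, the more uneven gene of each pair, were 3.21- and 4.53-fold apart alone, and BF2 and BLB1 less so. These genes are similar pairs that vary between haplotypes in the chicken, and the counting could split their reads.

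Immunoglobulin and B cell genes held 0.825, 0.487 and 0.895%, and 0.86% without replicate 2. Leaving out assembled loci, of which IGLL5 is one, took the mean share to 0.341%, against 0.736 ± 0.218% with them. PIGR, the receptor that carries immunoglobulin A through the epithelium, had 901, 753 and 928 FPKM. JCHAIN, the joining chain of secreted immunoglobulin, had 764, 462 and 836 FPKM. With IGLL5 these made up 95.7% of the class. CD79B and PAX5, found in B cells before they become plasma cells, averaged only 8.51 ± 2.81 and 1.85 ± 0.774 FPKM.

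T and NK cell genes held 0.449 ± 0.0505%. GNLY, granulysin of cytotoxic lymphocytes, led at 922, 1231 and 1194 FPKM. The T cell receptor chains' partners CD3D and CD3E had 265, 250.0 and 269 and 245, 226 and 266 FPKM, within 1.08- and 1.18-fold across libraries. GZMA, a granzyme, was less even at 109, 303 and 127 FPKM. CD8A averaged 31.5 ± 2.77 FPKM and CD4 15.3 ± 1.28 FPKM.

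Myeloid cell genes held 0.5 ± 0.0134%, led by the lysosomal gene PSAP (450.4 ± 43.3 FPKM), the galectin LGALS3 (352 ± 56.2 FPKM) and the lysosomal protease gene CTSB (317 ± 25.2 FPKM), which many cell types express. The macrophage receptor CSF1R had 46.0, 34.3 and 42.2 FPKM, and C1QA, of the first complement component, 87.0 ± 29.2 FPKM. Interferon, cytokine and chemokine genes held 0.853 ± 0.0622%. IFITM3, which blocks virus entry, averaged 735 ± 104 FPKM, TNFSF10 (TRAIL), a death ligand, 354 ± 48.5 FPKM, and the interferon regulatory factors IRF8 and IRF1 146 ± 22.9 and 139 ± 21.0 FPKM.

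Antibacterial and acute phase genes were a small class at 0.148 ± 0.0109%, with 18 of 39 genes under 1 FPKM in all 3 libraries. Lysozyme (LYZ) had 77.9, 80.4 and 73.0 FPKM. RNASE4 (RSFR in the reference), a secreted ribonuclease, had 236, 71.7 and 208 FPKM, and GBP4L, a guanylate-binding protein, 99.7, 311 and 272 FPKM. DUOX2, which makes hydrogen peroxide at mammalian gut surfaces, had 0.03, 0.05 and 0 FPKM here.

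Genes of the wall beneath the epithelium differed in how far they varied between libraries. Smooth muscle contractile genes held 1.60, 1.18 and 1.64% (1.47 ± 0.257%), and 1.62% without replicate 2. ACTG2, the actin of visceral smooth muscle, had 1559, 987 and 1461 FPKM. TAGLN, an actin-binding protein, had 839.6, 579 and 934 FPKM, and the regulatory light chain MYL9 829, 491 and 784 FPKM. In all 3 genes replicate 2 was lowest. Extracellular matrix genes held 0.76, 0.77 and 0.769%, or 0.766 ± 0.00538%, the smallest SD relative to the mean of any class on the FPKM scale. COL3A1, a fibrillar collagen chain, had 571, 572 and 576 FPKM, SPARC, a collagen-binding matrix protein, 508, 520.0 and 532 FPKM, and MGP, which checks calcification, 381, 385 and 367 FPKM.

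Classes of general cell function ranged widely in size. Cytoskeletal genes held 3.15 ± 0.0714%, chaperones and endoplasmic reticulum genes 2.12 ± 0.155%, junction and adhesion genes 1.58 ± 0.126%, RNA processing 1.53 ± 0.0605%, and proteasome and ubiquitin 1.51 ± 0.0343%. TMSB4X, which binds free actin, averaged 2130.4 ± 173 FPKM. HSPA8, a chaperone, averaged 1008 ± 73.0 FPKM and EPCAM, an adhesion molecule of epithelia, 1016 ± 154 FPKM. FTH1, the ferritin heavy chain that stores iron, made up 29.7% of the iron, metal and redox class, which held 1.40 ± 0.044%. Chromatin genes held 0.777 ± 0.0475% and cell cycle and replication genes 0.358 ± 0.0207%. PCNA, the clamp of the replication fork, averaged 76.8 ± 1.69 FPKM.

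Transcription factors and immediate early genes held 0.821 ± 0.0162%, with 110 of 145 genes at 1 FPKM or more in all libraries. BTG1, which restrains proliferation, led at 499.7 ± 17.2 FPKM, and ELF3, an epithelial factor, averaged 179 ± 8.66 FPKM. The intestinal factors HNF4beta, CDX1, GATA5 and HNF4G were chosen after their values were seen, so their similar levels are not a result. HNF4beta had 119, 112 and 110.4 FPKM, CDX1 114, 101 and 112 FPKM, GATA5 132, 102 and 89.4 FPKM and HNF4G 104, 114 and 98.2 FPKM. CDX2, the related homeobox factor, was listed at 3.35, 36.6 and 26.0 FPKM for a locus with an implied length of 784 bases. GATA4, a factor of the mammalian proximal intestine, had 1.17, 0.05 and 0.05 FPKM. HOXD13, of the hindgut end, was at 0 counts in all 3 libraries, where a level under the set floor of 3 counts per library is not excluded.

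Marker lists were set beside the tissue label. No duodenal library was at hand and each gene has its own usual level, so the lists cannot tell ileum from duodenum. All 8 genes of an ileal list drawn from mammals reached 1 FPKM in every CT library, with summed levels of 5037, 4463 and 4054 FPKM. FABP6 made up most of these sums, and without it the other 7 genes summed to 420, 468 and 422 FPKM. A duodenal list, also from mammals, reached 1 FPKM in 6 of its 7 measured genes, and summed to 259, 348 and 225 FPKM. The median of the members' mean levels was 71.7 FPKM in the ileal list and 38.0 FPKM in the duodenal one. CYBRD1, a duodenal iron reductase, was the highest member of the duodenal list at 102 ± 19.1 FPKM, and without it that list summed to 165, 224 and 137 FPKM. Lists for exocrine pancreas, kidney and glandular stomach were at or near 0. None of 13 exocrine pancreas genes reached 1 FPKM in any library, and CPA1, CPB1, CELA2A, PNLIP, CEL and CLPS had no count at all. The kidney list summed to 0.02 FPKM in replicate 1 and to 0 in both others, and the 4 measured glandular stomach genes summed to at most 0.76 FPKM.

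Liver genes were near 0 apart from F2, prothrombin, at 33.6, 44.5 and 23.9 FPKM, and FGG, a fibrinogen chain, at 1.16, 3.65 and 1.76 FPKM, while albumin (ALB) averaged 0.32 FPKM. The skeletal muscle actin ACTA1 had 48.4, 23.1 and 39.3 FPKM, although MYL1, of the same muscle list, was at 0. The gene labelled KRT20 in the table (414 ± 85.2 FPKM) and that labelled KRT19 (1.29 ± 0.766 FPKM) are named KRT40 and KRT24 in the reference, so their keratin identity is uncertain.

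Each list for a cell type of the gut wall had detected members. The enterocyte list summed to 6489, 7942 and 5728 FPKM over 15 genes. The goblet list, with 5 of its 9 genes measured, summed to 4909.9, 5134 and 4389 FPKM. Most of that came from the short Muc2 locus MSTRG.13178, and without it the goblet sums were 1791, 1933 and 1612 FPKM. The smooth muscle list summed to 4081, 2843 and 4265 FPKM over 10 genes and the fibroblast list to 1176, 1166 and 1188 FPKM over 9. Endothelial genes summed to 141, 140.2 and 150.4 FPKM, with PECAM1 and VWF at 31.1 ± 2.31 and 29.6 ± 2.61 FPKM. Enteric neuron and glia genes summed to 101, 104 and 104 FPKM, of which the peptide transmitter VIP made up 46.5, 44.9 and 46.0 FPKM. RET, the receptor that guides enteric neurons, averaged 7.58 ± 2.32 FPKM. In the list for interstitial cells of Cajal, the pacemakers of gut movement, KIT averaged 5.81 ± 0.921 FPKM and ANO1 5.03 ± 1.15 FPKM.

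In the crypt list, OLFM4, a product of mammalian crypt stem cells, averaged 501 ± 39.4 FPKM, against 13.0 ± 1.54 FPKM for the stem cell receptor LGR5 and 16.5 ± 4.51 FPKM for the proliferation marker MKI67. Red cell genes were low, with HBA1 at 18.5, 39.8 and 52.8 FPKM and HBBA at 11.1, 29.0 and 27.7 FPKM, and replicate 1 was lowest for both. The gene labelled ALAS2, the highest of that list at 54.9 ± 10.4 FPKM, is named ALAS1 in the reference, so it need not come from red cells.

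**Figure D3:**
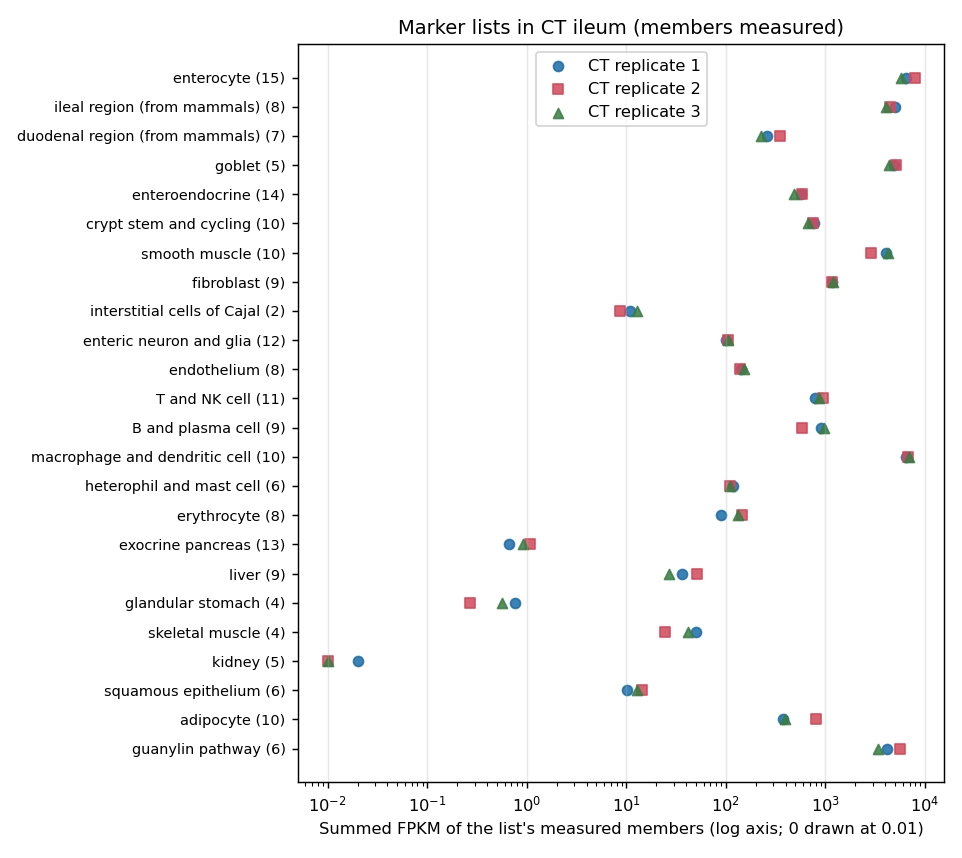
Summed FPKM (log axis) of each marker list in each CT library, with the number of measured genes in brackets and sums of 0 drawn at 0.01. Lists of the gut wall lie between 8.71 and 7942 FPKM, whereas exocrine pancreas, glandular stomach and kidney lie at or below 1.07 FPKM. Liver, skeletal muscle and squamous epithelium, at 10.3 to 50.8 FPKM, overlap the gut wall range. Most of each of these sums comes from 1 gene (F2, ACTA1 and EVPL).

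The 3 libraries were then compared with each other over the 12642 genes with a mean of at least 1 FPKM. Across genes, which are not independent replicates, log2(FPKM + 1) correlated with Pearson's r of 0.968 between replicates 1 and 2, 0.979 between 1 and 3, and 0.966 between 2 and 3. At least 2-fold apart were 4.78, 3.21 and 4.78% of genes in these pairs. The median SD per gene was 0.15 on the log2(FPKM + 1) scale. The median coefficient of variation (CV, SD over mean) was 11.7%, against 4.42% that counting alone gives at these depths. It was 16.9% for genes of 1 to 10 FPKM, 9.31% for 10 to 100, 9.58% for 100 to 1000 and 9.88% for the 56 genes above, whereas the counting error fell through 8.18, 3.31, 1.38 and 0.608%. Among genes of at least 10 FPKM, 71.1% had a CV over 2 times their counting error. The common biological coefficient of variation from edgeR was 0.179. It was 0.190, 0.157 and 0.184 without replicate 1, 2 and 3 in turn.

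**Figure D4:**
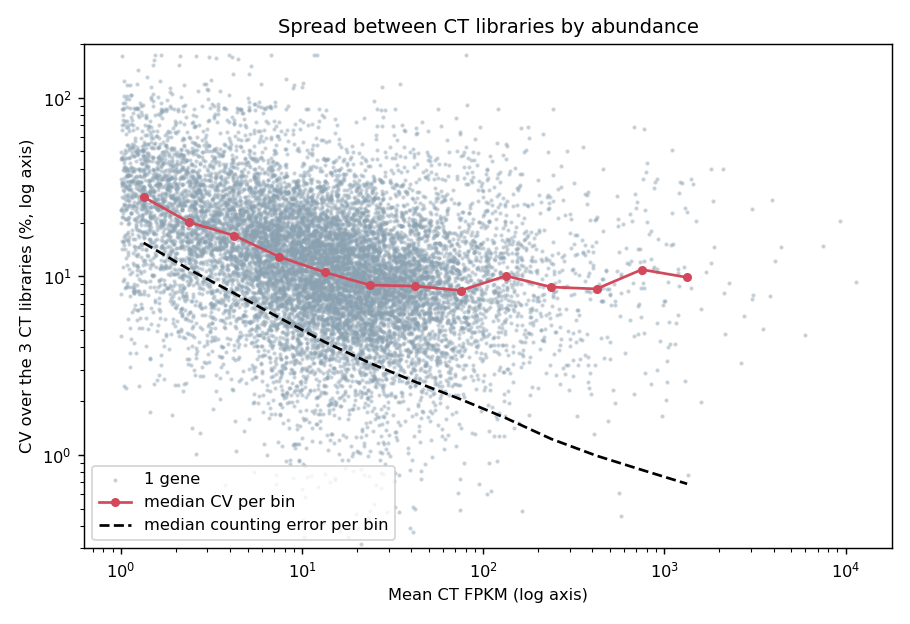
CV over the 3 CT libraries (%) against mean CT FPKM for genes of at least 1 FPKM, both on log axes, with the median per bin of abundance and the median CV that counting error alone gives. The median CV levels off near 10% above 10 FPKM while the counting line keeps falling.

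Among the first 100 genes the median CV was 10.9%, and 15 exceeded 30%. They include IGLL5, BF1, BF2, BLB1, BLB2, RPS6, RPL17, RPS23, MEP1A, DPEP1, SLC6A19, APOA1, CLCA1, CFD and the locus MSTRG.15732. CFD, complement factor D, had 1714, 906 and 1124 FPKM. MSTRG.15732, labelled ZAN and described as IgGFc-binding protein-like, had 566, 1193 and 286 FPKM, and its neighbours of the same name were not separated with certainty by the counting.

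At the other end, 10 named genes of at least 50 FPKM varied least. CCS, the copper chaperone of superoxide dismutase, had 54.3, 54.3 and 54.3 FPKM, so that its CV of 0.0106% lay far below its counting error of 3.47%. COL3A1 had a CV of 0.452%, SPIRE2, an actin nucleator, 0.485%, and ATRN, attractin, 0.488%. The proteasome subunit PSMB7 had 110.3, 109.7 and 109 FPKM, and SAR1B, the GTPase that sends chylomicrons out of the endoplasmic reticulum, 94.3, 94.7 and 95.6 FPKM. The other steadiest genes were GFPT1, SERINC1, RPL26L1 and LMAN2. The median CV over the 1628 named genes of at least 50 FPKM was 8.59%, and for all of the 10 except COL3A1 the CV was below the counting error.

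Replicate 2 was the library farthest from both others for 38.6% of genes, replicate 3 for 32.9% and replicate 1 for 28.6%. Counting genes at least 2-fold above both other libraries gave 60 for replicate 1 (0.475% of 12642), 102 for replicate 2 (0.807%) and 77 for replicate 3 (0.609%). At least 2-fold below both were 92 (0.728%), 173 (1.37%) and 76 (0.601%). Since 47 genes stood apart in 2 libraries and are counted for both, these were 533 different genes, of which 110 had a mean of at least 10 FPKM.

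Replicate 2 differed by gene class. It was lowest of the 3 libraries for 29 of 31 smooth muscle contractile genes with a mean of at least 1 FPKM, against 43.6% of all 12642 genes. The median log2 difference from the mean of both others was −0.48 for this class and −0.06 for all genes. For immunoglobulin and B cell genes it was lowest in 13 of 16, with a median of −0.56. Matrix genes were not shifted in the same way, since it was lowest in 26 of 66 with a median of −0.01. Being lowest in replicate 2 was not particular to smooth muscle and immunoglobulin genes. RNA processing (99 of 147), nuclear oxidative phosphorylation (55 of 85) and ribosomal protein genes (49 of 75) were also often lowest there. Their medians were −0.10, −0.14 and −0.11.

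In the other direction, replicate 2 was highest for 19 of 28 brush border genes (median 0.29) and 20 of 31 fat and sterol absorption genes (median 0.29), against 27.2% of all genes. Replicates 1 and 3 were not alike in these classes. The medians of replicate 3 were −0.26 and −0.33, and those of replicate 1 were −0.10 and 0.02. Replicate 3 was lowest for 17 of the 31 fat and sterol absorption genes. Brush border genes were lowest in replicate 1 for 12 and in replicate 3 for 11. Among single genes, SLC15A1, APOA1, DPEP1 and CYP2C23a were highest in replicate 2, though APOA1 and DPEP1 by less than 2-fold over the nearer library. Farthest above both others, among named genes with a mean of at least 10 FPKM, were RBP7, CHST14 and SPINK2, at 3.45-, 3.33- and 3.19-fold. Solute carriers as a class were highest in replicate 2 in 90 of 222 (median 0.04), and xenobiotic and retinoid enzymes in 39 of 92 (median 0.09). CYP2C23a, a cytochrome P450, had 96.4, 316 and 117 FPKM. RBP2, a retinol carrier of enterocytes, went against its class at 150.0, 55.9 and 197 FPKM, as did ENPP7, alkaline sphingomyelinase of the brush border, at 62.8, 0.74 and 19.6 FPKM. The share of tissue layers in each sample is not recorded, and its part in these differences was not tested. Replicate 2 was also the only CT library nearly without W-linked transcripts. Sex cannot be told apart from other traits of that library.

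An adipocyte list was added after replicate 2 was seen to hold high levels of RBP7 (29.5, 166 and 48.0 FPKM), FABP4 (93.0, 288 and 103 FPKM), PLIN1 (23.2, 72.6 and 31.2 FPKM) and LPL (7.07, 20.7 and 6.36 FPKM), genes of fat cells and their vessels. The 10 listed genes, all measured, summed to 374, 809.8 and 393 FPKM. The list followed these values and supports nothing beyond them. Replicate 2 was highest for 8 of the 10. It was lowest for ADIPOQ, the fat cell hormone adiponectin, at 94.3, 76.1 and 77.0 FPKM, and for FASN, fatty acid synthase, at 11.51, 10.35 and 12.07 FPKM. PPARG, the fat cell transcription factor, was only slightly higher in replicate 2 than in replicate 1, at 13.0, 13.6 and 8.56 FPKM.

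A few more genes, all but RPS6 chosen after their values were seen and no measure of the sex chromosomes as a whole, were also uneven in replicate 2. RPS6, a ribosomal gene carried on chromosome Z in chickens, had 1090.4, 1955 and 1137 FPKM, and RPL17 and RPS23 followed the same order with 977, 1697 and 984 and 695, 1189.8 and 744 FPKM. A further locus (LOC107049046), described as 60S ribosomal protein L17, had 363, 0.61 and 359 FPKM, which rest on 4444, 8 and 4950 counts. ATP5A1Z, the Z-linked partner of ATP5F1AW, had 178, 269.6 and 163 FPKM, and the pair summed to 265, 270 and 246 FPKM. RPL17 and its copy summed to 1340, 1698 and 1343 FPKM. The copies of a pair are alike in sequence, so the split of reads between them is uncertain. The CVs of RPS6, RPL17 and RPS23 were 34.9, 33.9 and 31.1%, where the median CV of all ribosomal proteins of at least 10 FPKM was 7.6%.

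Replicates 1 and 3 also had genes of their own. FUT6, a fucosyltransferase, had 48.4, 25.1 and 1.04 FPKM. The homeobox gene CDX2 and the costimulatory ligand HHLA2 were lowest in replicate 1, HHLA2 with 12.3, 53.2 and 63.6 FPKM. IFI6, an interferon-induced gene, was highest there at 129, 45.3 and 47.7 FPKM, as was FKBP51, a glucocorticoid-induced chaperone partner, at 65.0, 26.3 and 31.2 FPKM, and GLUL, glutamine synthetase, at 116, 58.6 and 51.1 FPKM. Cell cycle and replication genes were highest in replicate 1 for 70 of 123 members, against 35.2% of all genes. This was not particular to them. Proteasome and ubiquitin (49 of 84), chromatin (45 of 77) and immunoglobulin and B cell genes (12 of 16) were also often highest there.

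Replicate 3 alone had GAL3ST2, a sulfotransferase that acts on galactose, with 0, 0 and 1092 counts. Its level of 34.9 FPKM there was 323-fold higher than the floor of 3 counts set for a library at 0. LAPTM4B, a lysosomal membrane protein, had 7.06, 4.77 and 18.7 FPKM and TMSB15B, an actin-binding thymosin, 17.7, 68.1 and 126 FPKM, with replicate 3 highest in both. T and NK cell genes were highest in replicate 3 for 20 of 30 members, against the 37.3% of all genes given above, yet GZMA was highest in replicate 2. Nor was this particular to that class, since smooth muscle contractile genes (22 of 31) and ribosomal proteins (47 of 75) were also often highest in replicate 3.

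**Figure D5:**
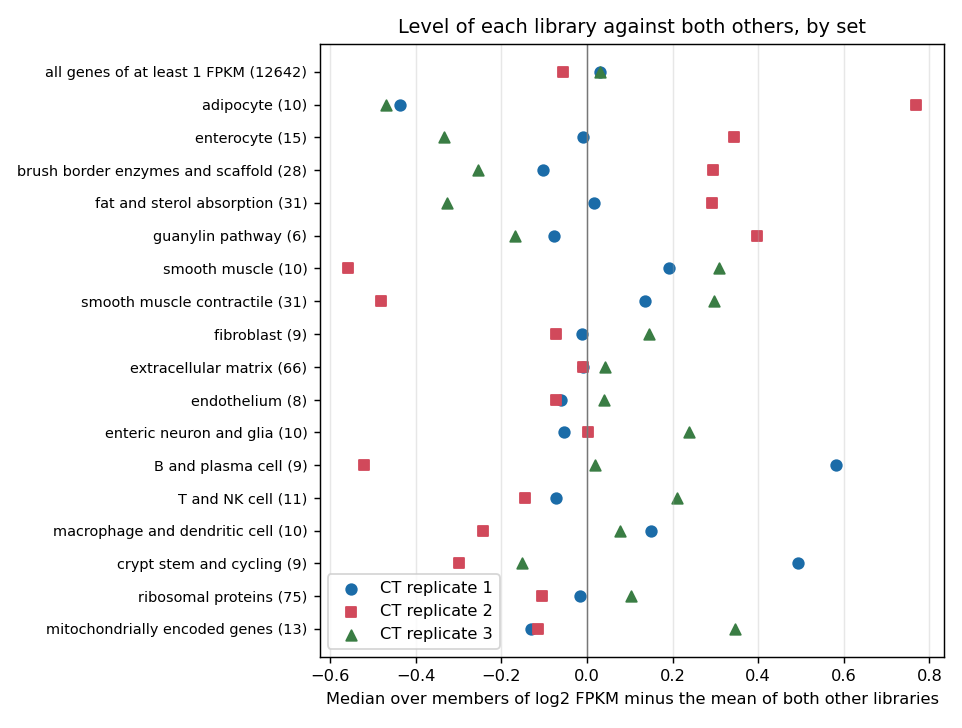
Median over the genes of a set of the difference in log2 FPKM between one CT library and the mean of both others, for gene classes and marker lists, with the number of genes in brackets. Replicate 2 lies at −0.56 for smooth muscle markers, while all genes lie between −0.06 and 0.03. The adipocyte list, at 0.77 for replicate 2, and the guanylin list were added after values were seen.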

How the data were processed

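Total RNA of ileum was sequenced in 6 libraries, of which the 3 CT libraries were used. Per the labels' protocols, TRIzol was used for extraction, and the library kit they name is one for small RNA, while genes of every length are listed. Per the file headers, the authors' deposited table gives estimated counts (expected counts, 7.91 to 8.41% of which are not whole in the CT libraries) and FPKM, which the authors scaled to transcript length and library size. Tools listed in the submitters' processing notes are DESeq2, StringTie, HISAT2, Bowtie2 and fastp 0.18.0, with no role stated. Genome build, use of strand and how reads were assigned to genes are not given in the sources used.

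Genes were ranked by mean FPKM over the 3 CT libraries. A share is the summed FPKM of a class over that of all 17623 listed genes, and mean ± SD run over the libraries. The table itself names 12776 genes, and 1710 more took the RefSeq symbol of the NCBI identifier in their description. Classes were assigned by symbol, with 20 corrections made after values were seen. The implied length of a gene is its counts over its FPKM and library total. A fold against a library at 0 uses a floor of 3 counts per library. Counting errors cover counting only. The set statistics of single libraries use log2 FPKM with that floor. The spread uses log2(FPKM + 1).

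The CT libraries form 1 group, so no test was made and no p-value is given. R 4.3.3 with edgeR 4.0.16 gave TMM factors and the biological coefficient of variation from rounded counts, and DESeq2 1.42.0 gave size factors. Steps that compute over all genes were tested on simulated data.

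The members and lists were chosen with earlier results of these data known. The adipocyte and guanylin lists were added after values were seen. Genes named are the 30 highest by mean FPKM, up to 6 highest members of each class and marker list and those at 0, up to 8 per library and direction with a mean of at least 10 FPKM that stood farthest from both other libraries, the 10 with the smallest CV among named genes of at least 50 FPKM, and W-linked genes. Other genes, such as CFD, RPL17, RPS23 and LOC107049046, were chosen after their values were seen. Some genes under this rule are not reported here.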

Additional observations from a re-analysis of the deposited data

How the results depend on the processing

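No paired analysis was possible because only the CT group was used and no test was made. Replacing FPKM by counts, which drops the scaling to length, took the share of the 100 most abundant genes to 23.0%, that of mitochondrially encoded genes to 4.14% and that of ribosomal proteins to 4.27%, and 66 of the first 100 genes stayed in that list. Leaving out mitochondrially encoded genes gave 26.8% for the 100 most abundant genes and 10.2% for ribosomal proteins, and leaving out assembled loci gave 9.83% for ribosomal proteins. The count of genes at least 2-fold from both other libraries, 533, became 1700 at 1.5-fold, 158 at 4-fold and 110 with a mean of at least 10 FPKM. The other 29 classes moved by more than their SD in 21 cases by counts, and by over 1.5 times in 6 of them. Leaving out 1 of 3 libraries cannot move a mean by more than its SD, so no such count is given. The shares of these 29 classes were then 0.876 to 1.17 times their values from all 3 libraries. Without 1 library in turn, the share of the 100 most abundant genes ran from 30.7 to 31.5%, and 95 to 97 of the first 100 genes stayed. The number of genes detected then ran from 12203 to 12344. It could not fall below 12102, because 1 FPKM was needed only in both remaining libraries. With minimum levels of 0.1 and 5 FPKM, 14251 and 9210 genes were detected. Assembled loci carried much of 2 classes, since without them the share of mucus and goblet cell genes was 0.443% and that of immunoglobulin and B cell genes 0.341%.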
